A study of Homo sapiens with 3 samples.

Results

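The cytosolic heat shock genes encode chaperones and co-chaperones, some inducible and some constitutive, that refold damaged protein in the cytosol and nucleus. Here 10 of them were followed in A549, a human lung adenocarcinoma cell line. HSPA1A, HSPA1B, HSPA8, HSP90AA1, HSP90AB1, HSPH1, DNAJB1, HSPB1, BAG3 and HSPE1 were chosen by name from the 22435 named genes on the array, with earlier results of these data known; the rule itself uses no measured value. They were read by 16 probes. HSPE1 goes against the label in one respect, since its product works inside mitochondria, and it was kept because it is a heat shock gene of the same list. Total RNA from 3 cultures, 1 per condition, was labelled with Cy3 and hybridised to 3 single-colour Agilent arrays on 1 slide. The control culture received 0.1% DMSO, the second received 60 μg/mL cordycepin, a deoxy analog of adenosine known from Cordyceps fungi, and the third received 100 μg/mL of a preparation named only as cordyceps. All were harvested at 48 h. The labels do not say whether the treated cultures also held DMSO. Every culture shared a DMEM medium with 10% serum and 1% penicillin and streptomycin, to which nicotinamide at 10 mM, troglitazone at 10 μM and zinc sulfate at 16.7 μM had been added. The series therefore describes 1 line with 1 culture a condition, and no difference between conditions has a replicate check or a test. Troglitazone, zinc and nicotinamide were present in the control as well, so the control is not an unsupplemented culture.

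Heat shock genes are switched on by HSF1, a transcription factor that cytosolic chaperones hold inactive until unfolded protein draws them away. HSP70 proteins (HSPA1A, HSPA1B, HSPA8) bind exposed hydrophobic stretches in cycles driven by ATP. J proteins such as DNAJB1 deliver clients and start those cycles, while BAG3 and the HSP110 protein HSPH1 release the nucleotide and end them. HSP90 proteins (HSP90AA1, HSP90AB1) finish the folding of kinases and hormone receptors, and the small heat shock protein HSPB1 holds unfolded protein until HSP70 arrives. HSPE1 is the lid of the mitochondrial chaperonin HSPD1. A separate set of chaperones, led by HSPA5, serves the endoplasmic reticulum (ER) and answers mainly to the unfolded protein response.

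The promoters of these genes are shown first, because heat shock genes are known as targets of HSF1, whose binding site is a row of inverted GAA units. Both arrangements of a neighbouring unit pair were searched, GAANNTTC and TTCNNGAA, each of which reads the same on both strands; in a row of 3 units the 2 motifs overlap by 3 letters. In RefSeq promoter windows of 300 bases, from 250 before to 50 after a gene's start, either motif was found in 8 of the 15 windows of the members (53.3%), covering 7 of the 10 genes. Either was present in 4737 of all 35116 windows given (13.5%). A row of 3 units was found in 3 of the 15 windows and in 172 of all windows (0.49%). Heat shock genes are known for such sites, so a larger share among the members comes with their choice and is no result of these arrays. Stretches of 160 bases that end just before the start are printed below for the pair with the lowest cordyceps ratios (HSPA1A, HSPA1B) and for the 3 genes with 3 units in a row, 5′ to 3′ on the gene's strand, with the unit letters of each match in capitals. The assembly is GRCh38.p14.
HSPA1A, chr6:31815383-31815542, plus strand: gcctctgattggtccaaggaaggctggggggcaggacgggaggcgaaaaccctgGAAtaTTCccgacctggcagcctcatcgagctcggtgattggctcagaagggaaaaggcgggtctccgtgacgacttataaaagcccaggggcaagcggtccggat
HSPA1B, chr6:31827578-31827737, plus strand: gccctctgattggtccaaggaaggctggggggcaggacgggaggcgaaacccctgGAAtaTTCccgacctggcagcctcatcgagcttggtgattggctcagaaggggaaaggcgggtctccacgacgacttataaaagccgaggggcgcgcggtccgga
HSP90AA1, chr14:102087045-102087204, minus strand: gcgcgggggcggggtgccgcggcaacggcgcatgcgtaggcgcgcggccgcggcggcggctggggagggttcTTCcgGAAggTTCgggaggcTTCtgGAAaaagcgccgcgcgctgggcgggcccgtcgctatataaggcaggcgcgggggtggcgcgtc
HSPA8, chr11:123062137-123062296, minus strand: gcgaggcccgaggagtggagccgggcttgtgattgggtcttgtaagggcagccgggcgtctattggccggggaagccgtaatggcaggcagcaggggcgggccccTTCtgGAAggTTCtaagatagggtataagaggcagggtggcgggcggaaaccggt
HSP90AB1, chr6:44247783-44247942, plus strand: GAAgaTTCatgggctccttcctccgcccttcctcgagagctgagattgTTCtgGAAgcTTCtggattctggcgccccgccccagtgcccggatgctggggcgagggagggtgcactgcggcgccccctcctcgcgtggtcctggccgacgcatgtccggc
HSPA1A and HSPA1B, neighbours on chromosome 6, had identical bases at 235 of the 250 positions upstream of the start (94%), and each held a single GAANNTTC, which opened at position -106 in HSPA1A and -105 in HSPA1B counted from the start. HSP90AA1 carried 3 units in a row and, nearer the start, a further TTCNNGAA. HSPA8 and HSP90AB1 each held a second row of 3 units, of which HSP90AB1's opens just outside the stretch shown. DNAJB1 and HSPB1 held GAANNTTC alone, and no window of HSPH1, BAG3 or HSPE1 held either motif. Among the ER chaperones 1 of 14 windows held a motif. A match is a string of letters and was not measured as a bound site in these cells.

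Each value is the log2 of the processed signal, the brightness of a spot after background subtraction, less the 75th percentile of its own array. Those percentiles were 260.1 in control, 224.3 in cordycepin and 260.2 in cordyceps. A gene was called when it differed by at least 2-fold from control. The 16 probes were well above background on all 3 arrays. 2 errors are given for a single ratio. The first is the scanner software's own error of 0.20 to 0.21 log2. The second is the spread between pairs of probes of the same gene, scaled to a single probe and taken from the median absolute deviation. It was 0.25 log2 for cordycepin and 0.20 for cordyceps over 3356 genes. The ordinary SD of the same pairs, scaled alike, was larger, at 0.35 and 0.34. Counts beyond the spread use the smaller figures. Neither error covers the spread between cultures. In a corner of the cordyceps array 1284 spots (11.2%) had outlying local background, against 0 on the other arrays, and 3 member probes lay in that corner: the only probe of BAG3 and the dimmer probes of HSP90AB1 and HSPH1.

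With cordyceps the heat shock genes lay below control, and HSPA1A and HSPA1B moved most among the members. All 16 probes gave a ratio below 0, and 13 lay below it by more than the spread between probes. The second probe of HSPB1 (-0.25) passed that spread but not the ordinary SD of 0.34. Of 13889 named genes measured, 8524 also lay below 0 by their brightest probe. How many of all probes passed the spread was not counted. 4 of the 16 member probes were called lower, 1 each for HSPA1A and HSPA1B and 2 for HSP90AA1, where 3.21% of all probes tested were called lower. None was called higher, against 5.21% of probes. By the brightest probe of each gene 2 of the 10 members were called lower (3.15% of all named genes) and 0 higher (4.19%). At 1.5-fold 6 of the 10 were lower (12.5% of all named genes) and at 3-fold 0 were (0.545%). The members' median log2 ratio was -0.64, with a range of -1.38 to -0.08, and that of all named genes was -0.11.

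With cordycepin no member was called in either direction, and the members went both ways. Of the 16 probes 7 lay above 0 and 9 below, and 6 went beyond the spread between probes, 3 lower (HSPA8, DNAJB1 and HSPA1A) and 3 higher (the brightest 2 probes of HSP90AA1 and the dimmest of HSPB1). HSPA1A (-0.27) and the second probe of HSP90AA1 (0.28) did not pass the ordinary SD of 0.35. Among 14600 named genes measured, 6619 lay above 0 and 7981 below. How many of all probes passed the spread was again not counted. Across all probes 7.07% were called higher and 3.62% lower with cordycepin, and across named genes 5.95% and 3.57%. At 1.5-fold 1 member, HSPA8, was lower (11.8% of all named genes). The members' median was -0.19, with a range of -0.73 to 0.37, beside -0.05 for all named genes. The 2 treatments differ in agent and dose and share 1 control array, so their values stand side by side with no comparison between them.

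**Figure D1:**
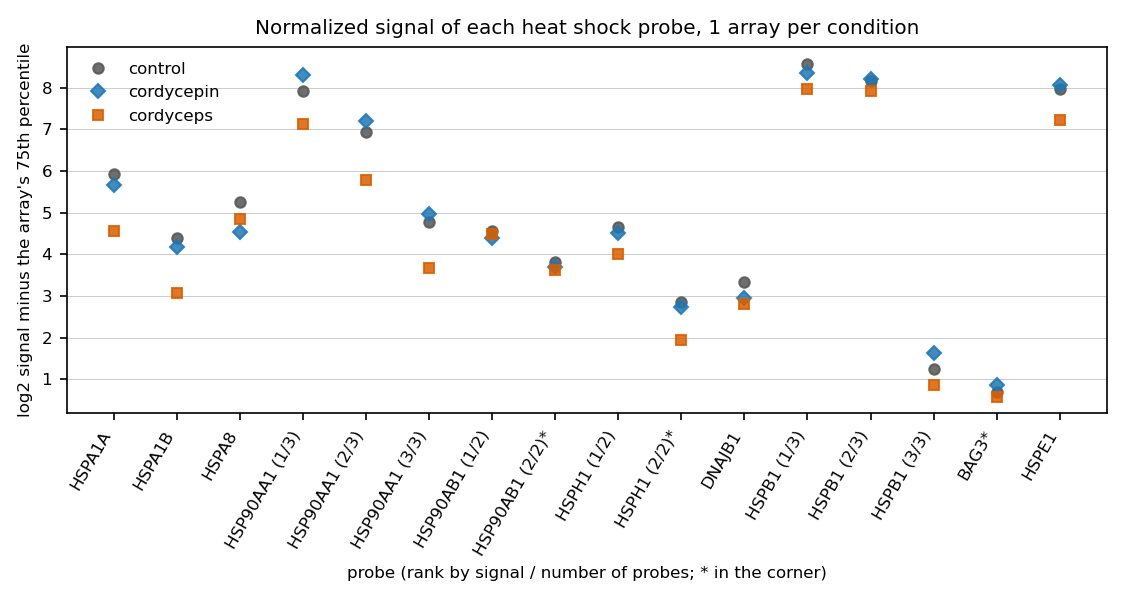
Normalized signal (y axis, log2 signal minus the array's 75th percentile) of each of the 16 probes (x axis) on the control (circles), cordycepin (diamonds) and cordyceps (squares) arrays, 1 array a condition. The cordyceps square lies below the control circle for all 16 probes. Heights of different probes cannot be set against each other.

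**Figure D2:**
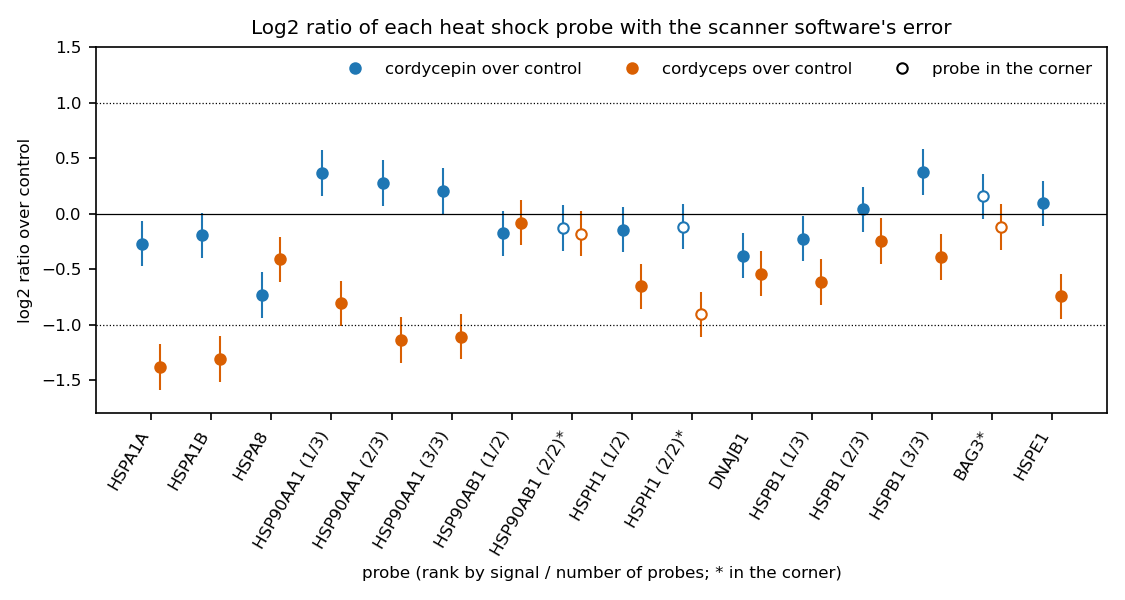
Log2 ratio over control (y axis) of each probe (x axis) with cordycepin (blue) and cordyceps (orange). Bars are the scanner software's error of 0.20 to 0.21 log2, dotted lines mark 2-fold, and open points lie in the corner of the array. Cordyceps ratios run from -1.38 to -0.08 and cordycepin ratios from -0.73 to 0.37.

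HSPA1A encodes the stress-inducible HSP70. Its mean signal was 15864 in control, 11339.6 with cordycepin and 6095 with cordyceps. The array carries 10 spots of this probe, which show how well 1 array repeats itself. The control spots ran from 15178 to 16393 with a median of 15901, the cordycepin spots from 10497 to 11967 with a median of 11449, and the cordyceps spots from 5751 to 6447 with a median of 6095. The spots of the 3 arrays did not overlap before scaling, and within an array their SD was 0.03 to 0.06 log2. Unscaled signals also carry the difference in level between arrays. How often the spots of other repeated probes separate likewise was not counted. After scaling the log2 ratio was -0.27 with cordycepin, 1.21 times lower than control, and -1.38 with cordyceps, 2.60 times lower. The 8 spots outside the corner gave -0.28 and -1.39, and the 2 inside it gave -0.22 and -1.33. Repeat spots share 1 labelled RNA, so this agreement bears on the hybridisation and not on the culture.

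**Figure D3:**
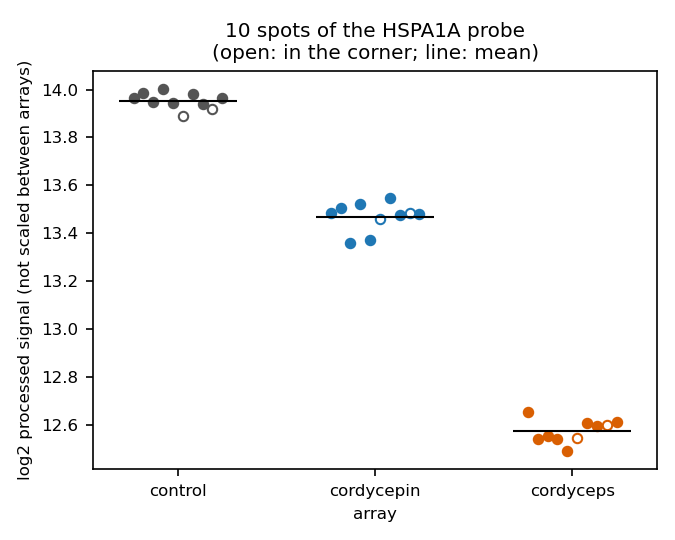
Log2 processed signal (y axis, before scaling between arrays) of the 10 HSPA1A spots on each array (x axis), with the mean as a line and the 2 corner spots open. The log2 SD within an array is 0.03 in control, 0.06 in cordycepin and 0.05 in cordyceps, and the arrays do not overlap. How often other repeated probes separate likewise was not counted.

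HSPA1B encodes nearly the same protein from the neighbouring gene. Its probe read 5417 in control, 4077 with cordycepin and 2185 with cordyceps, log2 ratios of -0.20 and -1.31, the latter 2.48 times lower than control. The array names the HSPA1A and HSPA1B probes separately, but whether each reads its own transcript alone was not tested, and the 2 ratios are not independent if they cross-hybridise. HSPA8 is the constitutive HSP70, which clears clathrin coats as well as folding new protein. It gave 9999.99 in control, 5186 with cordycepin and 7521 with cordyceps. It was the lowest member with cordycepin, at -0.73 (1.66 times lower), and stood at -0.41 with cordyceps. HSPA8 passed 2-fold with neither treatment, while both inducible genes passed it with cordyceps, each on 1 probe a gene.

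HSP90AA1, the stress-inducible HSP90, was read by 3 probes and was the only member above 0 with cordycepin on every one of several probes. Its brightest probe gave 63221 in control, 70262 with cordycepin and 36104 with cordyceps, log2 ratios of 0.37 and -0.81. The second gave 31780.4, 33172 and 14439, ratios of 0.28 and -1.14. The dimmest gave 7090.03, 7040.5 and 3293, ratios of 0.20 and -1.11. All 3 probes were therefore lower with cordyceps, but only the dimmer 2 passed 2-fold (2.20 and 2.15 times lower) and the brightest stopped at 1.75 times. The dimmest probe's cordycepin ratio is above 0 through the scaling, since its signal was nearly equal on both arrays.

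HSP90AB1, the constitutive HSP90, lay near control with cordyceps. Its brighter probe read 6178, 4705 and 5837 in control, cordycepin and cordyceps, ratios of -0.18 and -0.08. Its corner probe read 3661, 2886 and 3229.82, ratios of -0.13 and -0.18. Both probes of HSP90AB1 lay within the spread between probes in both treatments. This paralog and HSP90AA1 thus lay apart in the same RNA, with cordyceps ratios of -0.18 to -0.08 for the one and -1.14 to -0.81 for the other.

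Among the factors that run the HSP70 cycle, HSPH1 read 6597 in control, 5139.95 with cordycepin and 4195 with cordyceps, ratios of -0.15 and -0.65. Its corner probe read 1872, 1487 and 998.8, ratios of -0.12 and -0.91. DNAJB1, the J protein that HSF1 induces and that in turn helps to silence HSF1, read 2635, 1747 and 1813. Its ratios were -0.38 and -0.54, so it was below control on both treated arrays by more than the spread between probes. BAG3, which links HSP70 to autophagy, read 422, 405 and 389. Its ratios of 0.16 and -0.12 lay inside the spread, and its single probe was in the corner, so nothing outside the corner reads this gene.

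HSPB1 was read by 3 probes that differed in direction with cordycepin. The brightest gave 99189, 73113 and 64694.5 in control, cordycepin and cordyceps, ratios of -0.23 and -0.62. The second gave 74542, 65982 and 62792.5, ratios of 0.04 and -0.25. The third gave 621, 694 and 475, ratios of 0.37 and -0.39. The cordycepin ratios of HSPB1 thus had no shared sign, while its cordyceps ratios were all below 0. HSPE1 read 65025, 59723 and 38814, ratios of 0.09 and -0.75. Its partner HSPD1, whose gene lies head to head with HSPE1 and shares its promoter region, read 85907, 74673 and 88175, ratios of 0.01 and 0.04, on a single probe that lay in the corner. HSPB1, HSPE1, HSPA8 and both HSP90 genes have processed pseudogenes or close copies, and how far their probes read these was not tested.

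Scaling moved the level of all ratios together. When each array was centred on its median signal, the value for all named genes went from -0.05 to -0.32 with cordycepin and from -0.11 to 0.16 with cordyceps. With cordyceps 10 of 10 members lay below 0 as reported and 8 of 10 under median scaling, where HSP90AB1 and BAG3 crossed to above 0; HSP90AB1 also did so under quantile normalization (9 of 10), under a percentile taken over detected probes (9 of 10) and with the corner left out (8 of 9, where BAG3 has no probe). Set against the median of all named genes, 9 of the 10 members lay lower with cordyceps both as reported and under median scaling. With cordycepin 7 of 10 members lay below 0 as reported and 9 of 10 under median scaling and with no scaling, while 7 of 10 lay below the median of all named genes in each of these. HSPA1A and HSPA1B were called lower with cordyceps at 2-fold under every scaling tried, at -1.40 to -1.11 and -1.31 to -1.04 over all the alternatives.

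Markers of the line were read on the same arrays. By the brightest probe of each gene, 8 of 9 epithelial and A549 markers were detected on each array, with summed signals of 869505 in control, 686607 with cordycepin and 610465 with cordyceps. By these probes all 8 lay below 0 with cordyceps, with a median of -0.52 and a range of -1.36 to -0.46, while the 2 dimmer probes of KRT8 gave 0.34 and 0.43. KRT19 (-1.25) and ALDH3A1 (-1.36 from a corner probe, -1.26 from its other) were called lower, 2 of 8 against 3.15% of all named genes. With cordycepin 5 of the 8 lay below 0 and 3 above, with a median of -0.30. EPCAM was called lower there at -1.51, 1 of 8 against 3.57%. The part of these markers in the heat shock result was not tested. Of 7 leukocyte and endothelial markers 5 were detected in control and with cordycepin and 3 with cordyceps by the brightest probe, and 6 in control by any probe (PECAM1 added, at 24.2), at summed signals of 7683, 4609 and 5882; CD3E was not detected on any array, while CD14 read 3387 and CD79A 4093 in control. In bulk RNA, less transcript per cell and fewer cells that hold it cannot be told apart.

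HSF1 itself gave no call. Its brightest probe read 22694, 20959 and 28591 in control, cordycepin and cordyceps, ratios of 0.10 and 0.33. Another HSF1 probe of similar brightness read 22949.5, 18892 and 23977.3, ratios of -0.07 and 0.06. A dim HSF1 probe read 39.5, 33.6 and 46.5, ratios of -0.02 and 0.24. The cordycepin ratios of HSF1 thus differed in sign between probes, while its cordyceps ratios were all above 0. HSF2 read 1181, 1072 and 1119, ratios of 0.08 and -0.08. Of the 4 heat shock factor genes, HSF4 and the HSF1-binding protein HSBP1 included, 0 were called with either treatment. The array measures the HSF1 transcript, not the activity of the protein. Of 10 further HSF1-responsive genes 1 was called lower with cordycepin, against 3.57% of all named genes. It was the heme oxygenase HMOX1 (11222, 4681 and 8634, ratios of -1.05 and -0.38). The HMOX1 call was lost under quantile normalization (-0.94) and normexp background correction (-0.99). With cordyceps 8 of the 10 lay below 0 and 1 was called higher, against 4.19% of all named genes. The gene called was the proteasome adaptor ZFAND2A (779, 567 and 2166, ratios of -0.24 and 1.48). ZFAND2A thus went the other way from HSPA1A on the same array.

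The remaining HSP70 genes and partners gave 3 higher calls of 20 tested with cordycepin, where 5.95% of all named genes were called higher. HSPA6, the strictly inducible HSP70, read 27.1 in control and 176 with cordycepin, a ratio of 2.92, but was not well above background with cordyceps at 12.5. Its second probe read 44.6, 34.2 and 21.0 and gave -0.17 with cordycepin, so the 2 probes of HSPA6 disagreed and both were dim. DNAJB5 read 523, 1378 and 701, ratios of 1.61 and 0.42, and its second probe gave 1.90 and 0.74. HSPA4L, an HSP110 relative, read 253, 453 and 211, ratios of 1.06 and -0.26, and its call was lost under median scaling (0.79), no scaling (0.84) and normexp (0.87). The list's median was 0.20 with cordycepin. With cordyceps it was -0.21 and 1 gene of 20 tested was called lower, against 3.15% of all named genes. That gene was HSPA2 (1948, 2333 and 897, ratios of 0.47 and -1.12), which was not called under median scaling (-0.85) or normexp (-0.98). HSPA4, a nucleotide exchange factor, gave 0.46 and 0.09, and the J protein DNAJA1 gave 0.20 and -0.33.

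Of the 12 HSP90 cochaperones 0 were called with either treatment, with medians of 0.01 for cordycepin and -0.27 for cordyceps. The brightest probes of 6 of them lay in the corner, and the other 6 had a cordyceps median of -0.60. By the brightest probe, the lowest with cordyceps were AHSA1, which drives the ATPase of HSP90, at -0.80 and the immunophilin FKBP4 at -0.71. The dimmer probe of FKBP4, in the corner, gave -0.43. With cordyceps 8 of the 12 lay below 0 and 4 above, among them CDC37 (0.07) and PTGES3 (0.09) outside the corner. STIP1, the bridge between HSP70 and HSP90, gave 0.09 and -0.35 from a corner probe. Its dimmer probe, outside the corner, gave 0.21 and -0.09. The other small heat shock proteins had 0 calls of 6 tested with cordycepin and 1 of 7 with cordyceps, where 4.19% of all named genes were called higher. The call was HSPB3, at least 10.6-fold higher as reported, from a corner probe that was not well above background in control. Over the ways of processing its log2 value ran from 1.89 to 5.44. Outside the corner 0 genes of this list were called with cordyceps. CRYAB and HSPB8 stood at -0.88 and -0.96 with cordyceps, short of 2-fold. The cytosolic chaperonin and prefoldin, which fold actin and tubulin, had medians of -0.08 and -0.18 over 13 genes and 1 call. CCT5 was called lower with cordycepin, where 3.57% of all named genes were. Its ratio was -1.30 from a dim corner probe, and -0.42 under normexp.

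The lists of mitochondrial and ER chaperones had medians above 0 with cordyceps, where the members' median lay below it. The 7 mitochondrial chaperones had 0 calls and medians of 0.16 with cordycepin and 0.20 with cordyceps, with HSPA9, the mitochondrial HSP70, at 0.72. With cordyceps 5 of the 7 lay above 0 and 2 below, and 2 were read in the corner. HSPE1, which works in mitochondria but is counted with the members, gave -0.75 with cordyceps. The cordycepin median is the value of HSCB's brightest probe, whose other probe gave -0.85. All 10 ER chaperones lay above 0 with cordyceps, with a median of 1.26. Of these 7 were called higher, 6 of them outside the corner, against 4.19% of all named genes. With cordycepin all 10 ER chaperones lay below 0, with a median of -0.50, and 1 was called lower, against 3.57% of all named genes. HSPA5, the HSP70 of the ER, read 2560.3 in control, 1163 with cordycepin and 17397 with cordyceps, ratios of -0.92 and 2.76 (6.79-fold higher). The cordyceps array therefore held an HSP70 of the ER far above control and the inducible HSP70s of the cytosol below it.

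The J proteins of the ER, DNAJB9, DNAJC3 and DNAJB11, were called higher with cordyceps at 3.93-fold, 2.45-fold and 2.33-fold. The disulfide isomerase PDIA4 was 2.74-fold higher from a corner probe, and SDF2L1, a partner of the ER J proteins, 2.01-fold. HYOU1, the HSP110 of the ER, read 77.6, 30.2 and 272, ratios of -1.15 and 1.81, and was the one called lower with cordycepin; under normexp it gave -0.52 and no ER chaperone was called lower, while under median scaling and with no scaling 3 were. HSP90B1, the HSP90 of the ER, gave 0.95 with cordyceps from a corner probe and 1.40 from its other probe, where HSP90AA1 gave -1.14 to -0.81. The ER median exceeded the members' median by 1.89 log2 with cordyceps, and by 1.83 to 1.95 over the ways of processing, while with cordycepin it lay on the other side at -0.31. These differences have no test, since each condition is 1 array.

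**Figure D4:**
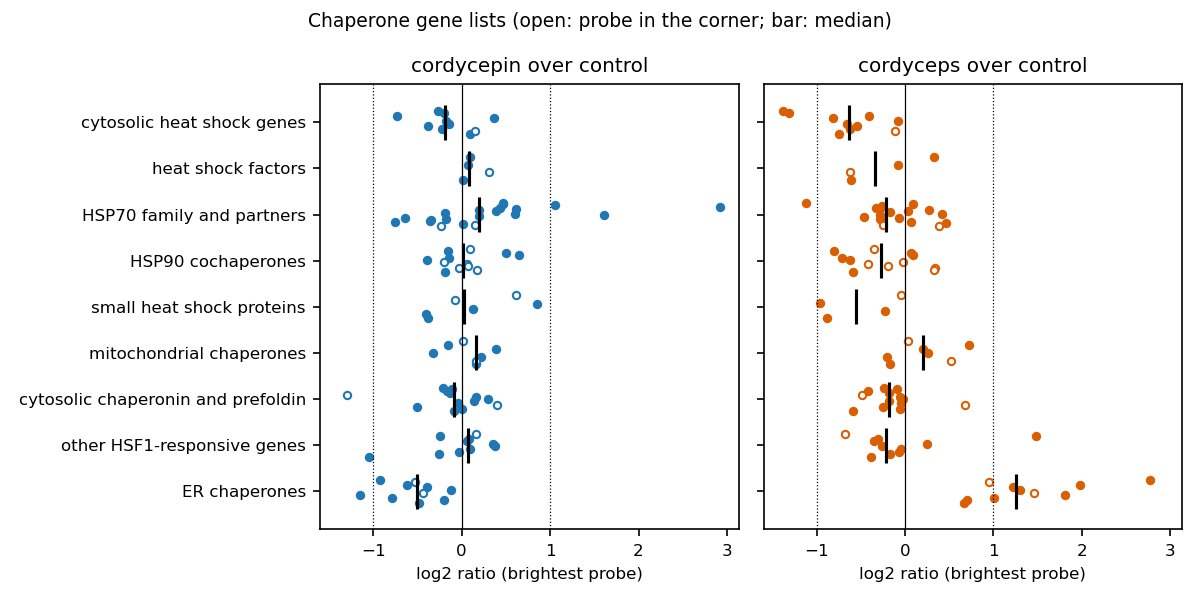
Log2 ratio over control (x axis) of each measured gene by its brightest probe, for the cytosolic heat shock genes and 8 other chaperone lists (y axis), with cordycepin (left) and cordyceps (right). Black bars are medians, open points lie in the corner and dotted lines mark 2-fold. With cordyceps the heat shock genes have a median of -0.64 and the ER chaperones one of 1.26.

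**Figure D5:**
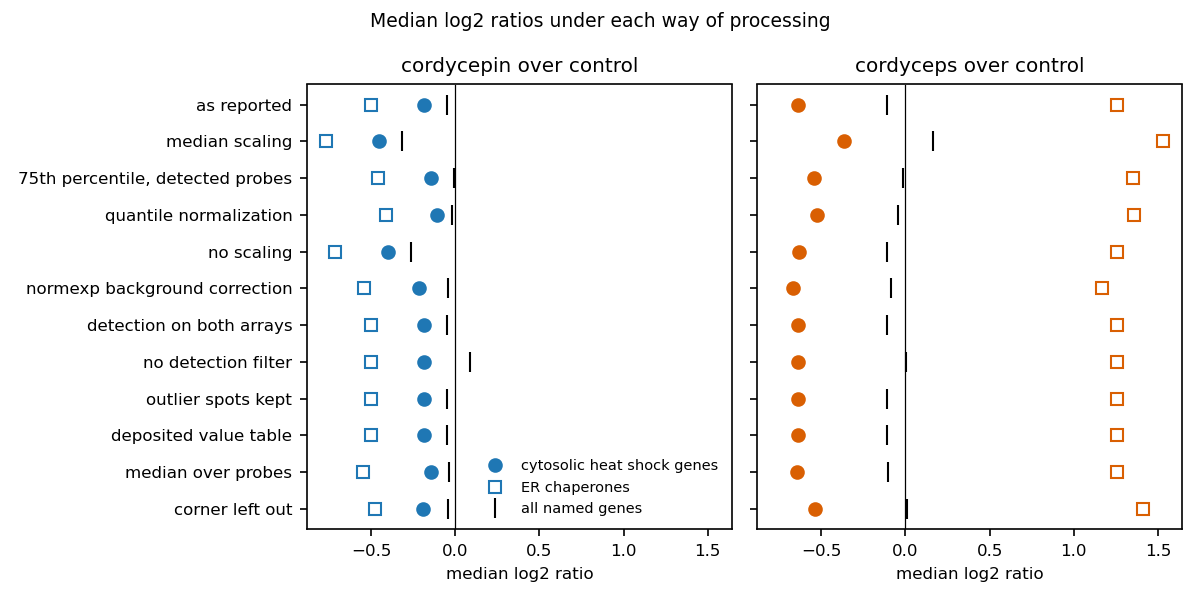
Median log2 ratio over control (x axis) of the cytosolic heat shock genes (filled circles), ER chaperones (open squares) and all named genes (black ticks) under each way of processing (y axis), with cordycepin (left) and cordyceps (right). Median scaling shifts all 3 together, to -0.37 for the heat shock genes with cordyceps.

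Many other genes lay near the members' medians, while the members themselves were spread around them. The members with a brightest probe outside the corner had medians of -0.20 with cordycepin and -0.65 with cordyceps. Of 11167 other genes, 676 (6.05%) lay within 0.25 log2 of that point over the 3 arrays. The nearest 5 were ATP5MC3, a subunit of the mitochondrial ATP synthase, the phosphatase regulator ENSA, the noncoding RNA ZNF236-DT, the surface protein CD99 and ARHGEF17, at distances of 0.005 to 0.011 log2. Among the members, HSPH1 lay near the point, with -0.15 for cordycepin and -0.65 for cordyceps. HSPA1A (-0.27 and -1.38), HSPA8 (-0.73 and -0.41) and HSP90AA1 (0.37 and -0.81) lay far from it. How many members lay within 0.25 log2 was not counted.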

How the data were processed

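The authors scanned 3 single-colour Cy3 arrays of A549 RNA and deposited each array's scanner output, made with Agilent Feature Extraction 11.5.1.1, in which every spot has a processed intensity that is background-subtracted and detrended within the array but not scaled between arrays. The study's methods name Cy3 and Cy5 labels and GeneSpring, but the deposited files hold 1 channel. The deposited table of intensity values per probe lay within 1% of the mean of the scanner values for at least 99.9% of 58201 probes.

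Control spots and outlier spots were left out, the spots of a probe were averaged, and log2 of the intensity minus the array's 75th percentile was taken for 58191 probes. Probe accessions were matched to RefSeq symbols, which named 31104 probes and 22435 genes. A gene was read by its brightest probe and tested where it was well above background on at least 1 array of the pair. It was called at 2-fold, as a measured ratio or, where 1 array was not above background, as a bound. There were 28494 probes well above background in control, 27666 with cordycepin and 24505 with cordyceps, no spot was saturated, and the number of arrays, 1 per condition, limits the precision. No test was possible. The members, the 10 other gene lists and the naming rule were chosen with earlier results of these data known. The rule named all members with every probe, 9 preset chaperone genes, every gene of the other lists called in either treatment and the 5 genes nearest the members' medians. AHSA1, FKBP4, CDC37, PTGES3, HSPA9, HSCB, CRYAB and HSPB8 were named after their values were seen. BAG6, VBP1 and AKR1C2 were not matched to a probe. The corner is the part of the array beyond 5/8 of the rows and 1/2 of the columns. Promoter sequences are RefSeq's for GRCh38.p14. Alternatives covered scaling, background correction (normexp with an offset of 50), detection, outlier spots, probe choice, the corner, the deposited table and the threshold. Python 3.11.15, numpy 2.4.6, pandas 2.3.3, R 4.3.3 and limma 3.58.1 were used. Only the calling step and the quantile scaling were tested on simulated data. The simulated noise was smaller than the spread between probes here, and calls as a bound were not simulated.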

Additional observations from a re-analysis of the deposited data

How the results depend on the processing

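No called ratio of the members or the chaperone lists changed sign under the alternatives run. The count of members called lower with cordyceps was 2 or 3 at 2-fold, the higher when HSP90AA1 was read by the median of its probes. The counts moved with the threshold: at 1.5-fold 1 member was called lower with cordycepin (11.8% of all named genes) and 6 with cordyceps (12.5%), and at 3-fold 0 were called lower with cordyceps (0.545%). The members' median moved with median scaling, to -0.45 with cordycepin and -0.37 with cordyceps, which is by construction a shift common to all genes. HSP90AA1 ranged from 0.10 to 0.48 with cordycepin and from -1.11 to -0.54 with cordyceps, its 2-fold call resting on which probe was read, and HSPA8 from -0.998 to -0.61 with cordycepin. HSPA6 ranged from 1.37 to 2.96 with cordycepin. No paired analysis was possible because each condition has 1 array and no replicate number. The arrays shared 1 slide, so no batch could be compared, and dim probes near background, such as those of HSPA6, limit what can be read.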
